A study of Mus musculus with 6 samples.

Results

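Messenger RNA of the matrix and TGF-beta-activating integrins was examined in cultures labelled as mouse hepatic stellate cells. Stellate cells are the vitamin A-storing pericytes of the liver. The set comprised 10 subunit genes, taken by gene name from a table of 55401 genes: Itga1, Itga5, Itga8, Itga11, Itgav, Itgb1, Itgb3, Itgb5, Itgb6 and Itgb8. All 10 names were found, each once. The coordinates of the alpha chain genes, which match GENCODE M21 (GRCm38), are chr13:114953096-115101964 (minus) for Itga1, chr15:103344286-103366763 (minus) for Itga5, chr2:12106632-12301922 (minus) for Itga8, chr9:62677826-62783982 (plus) for Itga11 and chr2:83724397-83806916 (plus) for Itgav. Those of the beta chain genes are chr8:128685654-128733200 (plus) for Itgb1, chr11:104608000-104670476 (plus) for Itgb3, chr16:33829665-33949338 (plus) for Itgb5, chr2:60598292-60722643 (minus) for Itgb6 and chr12:119158022-119238802 (minus) for Itgb8. The cells came from S100a16+/- mice, heterozygous for the gene of the calcium-binding protein S100A16, and from WT mice, with 3 libraries for each genotype. Both genotypes were on the C57BL/6J background, and both kinds of culture were kept for 7 days in medium with fetal bovine serum, under which stellate cells take on a myofibroblast form. The heterozygous mice carried the change in every cell type, not in stellate cells alone. Neither age and sex nor whether the 3 libraries of a genotype came from separate animals was given, so the p-values measure only the spread between these libraries.

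Integrins are cell-surface receptors made of 1 alpha and 1 beta chain, which bind matrix proteins outside the cell and the actin cytoskeleton inside it through talin and kindlin. The beta1 chain pairs with alpha1 and alpha11 to bind collagen, with alpha5 to bind fibronectin and with alpha8 to bind nephronectin and other ligands that carry the RGD motif. The alphav chain pairs with beta1, beta3, beta5, beta6 or beta8, and these receptors bind the latency peptide of TGF-beta and can release the active cytokine, the main fibrogenic signal to stellate cells. In fibrotic liver, alphav integrins on stellate cells and myofibroblasts are known as part of that signal.

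The libraries held 61979103 to 76291481 counts. S100a16 itself had 18.0, 17.7 and 30.0 FPKM (a level scaled to transcript length and library depth) in S100a16+/- replicates 1, 2 and 3. The WT libraries had 57.7, 58.8 and 56.8 FPKM. The difference was in the direction of the labels (log2 change -1.35, edgeR adjusted p = 0.0313). That call was lost with no filter (edgeR adjusted p = 0.0516). S100a16+/- replicate 3 stood apart. It correlated with the other S100a16+/- libraries at r = 0.930 and 0.929 over log2(FPKM + 1), where they correlated with each other at 0.987 and the WT libraries among themselves at 0.981 to 0.985. It also had 32.2 FPKM of the female transcript Xist, where no other library exceeded 0.0323 FPKM. The Y-linked Ddx3y was at 0.0102 FPKM in it, against 12.1 and 13.2 FPKM in replicates 1 and 2 and 12.3 to 15.8 FPKM in WT. By these genes replicate 3 differed in sex from all other libraries, and its sex cannot be told apart from its other differences. The summed level of 8 myofibroblast markers was 1161, 1136 and 162 FPKM in the S100a16+/- libraries, against 947 to 1038 FPKM in WT. The summed level of 10 endothelial markers was 692, 661 and 1825 FPKM, against 1387 to 1542 FPKM in WT. The 10 macrophage markers summed to 15650, 16828 and 11282 FPKM, against 8604 to 9047 FPKM in WT. The 10 stellate markers summed to 124, 121 and 46.0 FPKM, against 66.2 to 81.9 FPKM in WT. Of these 10 markers 5 passed the filter on low values. The defining stellate genes Lrat and Gfap stayed at or below 0.0517 and 0.0353 FPKM in every library. With macrophage and endothelial markers this high in bulk libraries, the integrin levels cannot be assigned to stellate cells. Member results and the counts of each pathway list are therefore given with and without S100a16+/- replicate 3.

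The 10 subunits spanned more than 3 orders of magnitude in level per length, and the same 4 genes filled the top of the order in both genotypes. Mean Itgb1 was 276 ± 57.2 FPKM in S100a16+/- cells and 319 ± 6.44 FPKM in WT cells (SD, n = 3 each), above every other member in every library. In S100a16+/- cells the order ran Itgb1, Itga5, Itgb5, Itgb3, Itgav, Itga1 and Itga8, with the ranges of Itga5 and Itgb5 overlapping and no other neighbours overlapping. In WT cells it ran Itgb1, Itgb5, Itga5, Itgb3, Itgav, Itga1 and Itga8, with no neighbours overlapping. The genotypes thus differed in the order of Itga5 and Itgb5, and within the S100a16+/- group Itga5 was above Itgb5 in all 3 libraries. Itgb8, Itga11 and Itgb6 closed the order at or below 0.301 FPKM in every library.

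**Figure D1:**
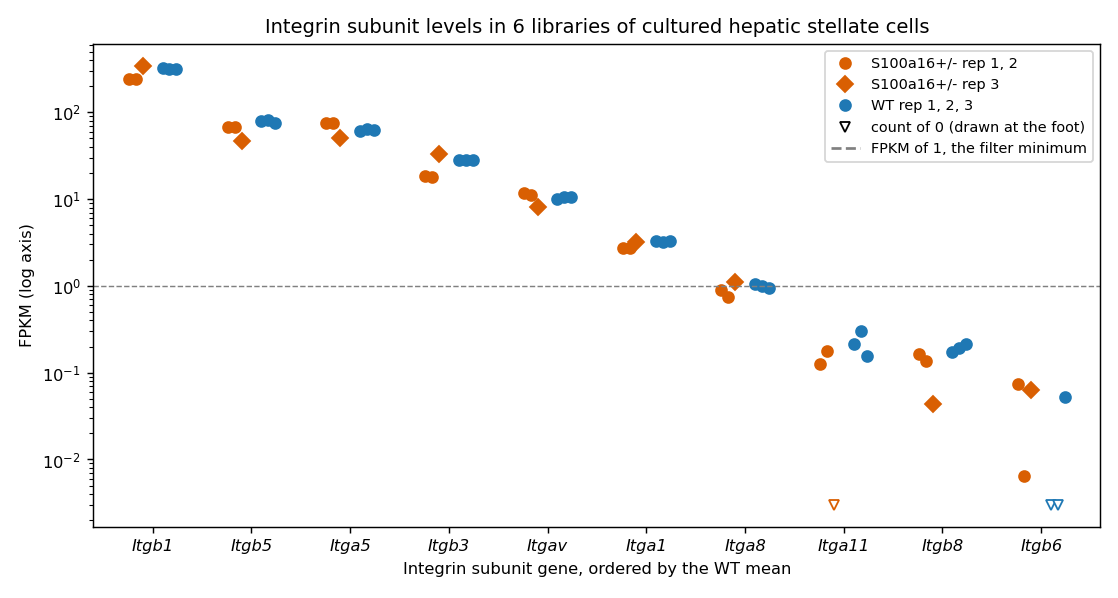
FPKM of the 10 integrin subunits on a log axis, 1 point per library, with S100a16+/- libraries to the left of WT libraries for each gene, a diamond for S100a16+/- replicate 3 and open triangles at the foot for counts of 0. Itgb1 lies above the other members in all 6 libraries, and Itga11, Itgb8 and Itgb6 lie at or below 0.301 FPKM.

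Promoters are shown for the beta1, beta5, alpha5 and alphav chains, which carry the fibronectin and vitronectin receptors at the top of the order. The 250 bases before the start of each gene are taken from RefSeq (GRCm38.p6), printed on the gene's own strand, with GC boxes (GGGCGG or its reverse complement CCGCCC) in capitals. The windows are chr15:103366792-103367041 on the minus strand for Itga5 and, on the plus strand, chr8:128685404-128685653 for Itgb1, chr2:83724147-83724396 for Itgav and chr16:33829415-33829664 for Itgb5. RefSeq entries matched 9 of the 10 members, and Itgb3 had no entry in the table used here.
Itga5 promoter: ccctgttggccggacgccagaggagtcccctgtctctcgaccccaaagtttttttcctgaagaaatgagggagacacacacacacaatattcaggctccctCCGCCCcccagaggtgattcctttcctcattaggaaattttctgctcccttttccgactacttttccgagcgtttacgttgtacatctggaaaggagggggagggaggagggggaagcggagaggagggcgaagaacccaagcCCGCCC
Itgb1 promoter: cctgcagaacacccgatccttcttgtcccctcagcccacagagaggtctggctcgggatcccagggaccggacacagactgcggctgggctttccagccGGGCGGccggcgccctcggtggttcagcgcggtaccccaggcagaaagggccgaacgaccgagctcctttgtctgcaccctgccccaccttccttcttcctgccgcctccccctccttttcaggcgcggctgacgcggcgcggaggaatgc
Itgav promoter: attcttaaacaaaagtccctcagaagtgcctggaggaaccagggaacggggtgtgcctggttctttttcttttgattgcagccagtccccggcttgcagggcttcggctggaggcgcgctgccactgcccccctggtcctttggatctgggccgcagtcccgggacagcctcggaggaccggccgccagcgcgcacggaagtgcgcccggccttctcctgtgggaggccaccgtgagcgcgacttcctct
Itgb5 promoter: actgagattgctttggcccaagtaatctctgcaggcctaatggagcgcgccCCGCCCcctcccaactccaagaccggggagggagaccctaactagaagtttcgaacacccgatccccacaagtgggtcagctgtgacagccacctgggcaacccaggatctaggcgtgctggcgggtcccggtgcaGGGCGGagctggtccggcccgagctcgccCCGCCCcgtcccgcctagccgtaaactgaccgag
The Itga5 window held 2 GC boxes, the Itgb1 window 1, the Itgb5 window 3 and the Itgav window none. GC content was 55.6% for Itga5, 68.0% for Itgb1, 64.4% for Itgav and 65.2% for Itgb5, against a median of 52.4% over all 32851 promoter windows. Of the 10 member windows, with 2 starts for Itgb6, 3 held a GC box, which 32.7% of all windows also hold. None held TATAAA, present in 12.4% of all windows, or the AP-1 motif TGANTCA, present in 6.75%. The SMAD-type motif CAGAC, searched on both strands, was found in 4 of the 10 windows and in 42.2% of all windows. The ETS motif GGAAGT was found in 4 of the 10 and in 19.7% of all windows, and the TEAD motif GGAATG in 1 of the 10 and in 12.6%, both searched on both strands. These matches describe letters only.

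Of the 10 members, 7 passed the filter of at least 1 FPKM in at least 3 libraries, and none of these 7 passed the test between genotypes. edgeR's quasi-likelihood test, with Benjamini-Hochberg adjustment over 12766 genes, called 0 of 7 members higher and 0 lower at an adjusted p of 0.05. DESeq2 and limma also called 0, where DESeq2 called 1125 of all genes higher and 763 lower. In edgeR 0 of 7 reached an unadjusted p of 0.05, and the share of all genes that did was not computed. The test called 4.46% of all genes, 2.85% higher and 1.61% lower. The median log2 change of the 7 tested members was -0.12, beside 0.00 over all genes tested. With 3 libraries a group, an exact permutation test of a single value cannot go below a two-sided p of 0.1.

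Among the alpha chains, Itga5, the fibronectin receptor subunit, had 75.7, 76.2 and 50.0 FPKM in S100a16+/- replicates 1, 2 and 3, against 61.3, 64.1 and 61.8 FPKM in the WT libraries. Replicates 1 and 2 were above all WT libraries and replicate 3 was below them, so the groups overlapped. The log2 change was 0.16 (SE 0.18, 95% interval -0.28 to 0.61, edgeR adjusted p = 0.652). Itgav, the shared alpha chain of the TGF-beta-activating receptors, had 11.8, 11.2 and 8.17 FPKM in S100a16+/- cells, against 10.1, 10.7 and 10.5 FPKM in WT cells. It followed the pattern of Itga5, high in 2 mutant libraries and low in the third. Its means were 10.4 ± 1.93 FPKM and 10.4 ± 0.275 FPKM, and its log2 change of 0.046 (SE 0.15, edgeR adjusted p = 0.891) became -0.012 when scaled to library totals alone.

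Itga1, a collagen receptor chain, had 2.73, 2.71 and 3.24 FPKM in S100a16+/- cells, against 3.31, 3.20 and 3.27 FPKM in WT cells. Replicates 1 and 2 were below all WT libraries, and replicate 3 lay within the WT range. The log2 change was -0.12 (SE 0.080, 95% interval -0.32 to 0.077, edgeR adjusted p = 0.450). Its count is uncertain because the gene Pelo lies within it on the same strand, with 41.4% as many counts. Itga8, which pairs with beta1 and is known from stellate and other perivascular cells, had 0.891, 0.750 and 1.12 FPKM in S100a16+/- cells, against 1.05, 1.01 and 0.949 FPKM in WT cells. Replicate 3 was the highest of all libraries and replicates 1 and 2 the lowest, and the log2 change was -0.071 (SE 0.16, edgeR adjusted p = 0.842).

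Among the beta chains, Itgb1, the partner of most matrix-binding alpha chains, had 244, 243 and 342 FPKM in S100a16+/- cells, against 325, 313 and 319 FPKM in WT cells. Replicates 1 and 2 lay below all WT libraries and replicate 3 above them. The log2 change was -0.16 (SE 0.15, 95% interval -0.52 to 0.20, edgeR adjusted p = 0.586). Itgb3, which pairs with alphav in the classical vitronectin receptor and with the platelet chain alphaIIb, had 18.5, 18.1 and 32.9 FPKM in S100a16+/- cells, against 28.0, 28.4 and 28.3 FPKM in WT cells. Its libraries split the same way, and its log2 change of -0.24 (SE 0.23, 95% interval -0.82 to 0.33) had an edgeR adjusted p of 0.611. The 3 WT libraries differed by less than 0.4 FPKM, whereas the S100a16+/- SD was 8.46 FPKM.

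Itgb5, the vitronectin receptor chain that pairs only with alphav, had 68.3, 67.2 and 46.6 FPKM in S100a16+/- cells, against 80.4, 80.5 and 74.8 FPKM in WT cells. It was the 1 tested member of 7 whose groups did not overlap, and it was lower in all 3 S100a16+/- libraries, where 18.9% of all tested genes were likewise lower without overlap and 31.4% did not overlap in either direction. Its mean was 60.7 ± 12.2 FPKM in S100a16+/- cells and 78.6 ± 3.22 FPKM in WT cells, and its log2 change was -0.32 (SE 0.17, 95% interval -0.73 to 0.088, edgeR adjusted p = 0.332). Replicate 3 held 59.4% of the WT mean, and replicates 1 and 2 held 86.9% and 85.5%. Without replicate 3 its log2 change was -0.15 (edgeR adjusted p = 0.0623).

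**Figure D2:**
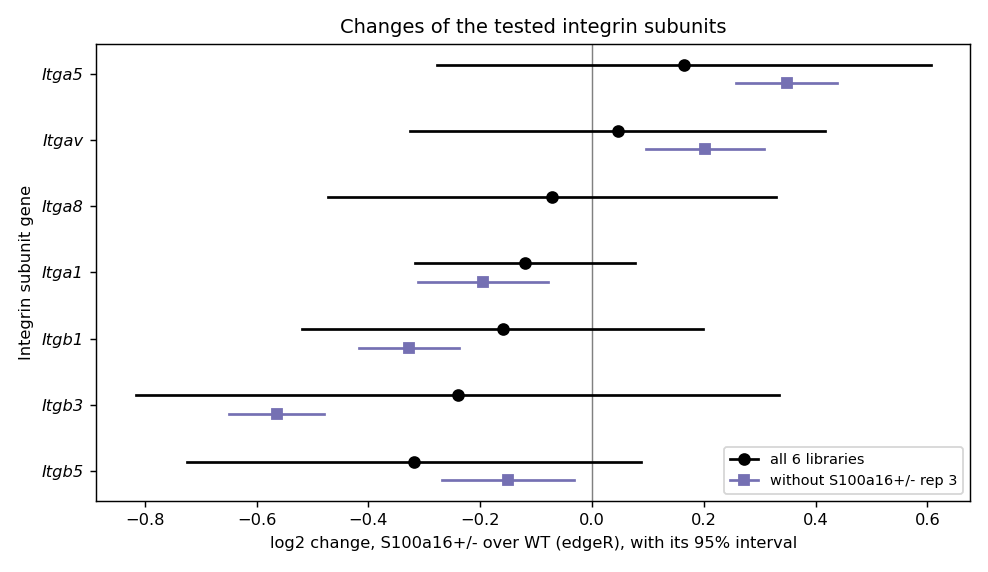
Log2 change of the 7 tested members, S100a16+/- over WT, with 95% intervals from edgeR, for all 6 libraries (circles) and without S100a16+/- replicate 3 (squares). With all libraries every interval spans 0, and without replicate 3 the intervals of the 6 members still tested do not.

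The remaining 3 members were below the filter. Itga11, a collagen receptor chain of fibroblasts, had 51, 70 and 0 counts in S100a16+/- libraries, against 81, 132 and 65 counts in WT libraries. The library with 0 counts was S100a16+/- replicate 3, where a count of 0 allows up to 0.0484 CPM (counts scaled to library depth), a limit that covers counting error only. Itgb8, a beta chain that releases TGF-beta through alphav, had 143, 117 and 33 counts in S100a16+/- cells, against 140, 182 and 189 counts in WT cells. The WT and S100a16+/- counts overlapped, with replicate 3 far the lowest, while in FPKM all 3 S100a16+/- libraries were lower, at 0.164, 0.136 and 0.0430 FPKM, against 0.171, 0.194 and 0.211 FPKM in WT. Itgb6, an epithelial beta chain, had 41, 4 and 31 counts in S100a16+/- libraries, against 0, 0 and 30 counts in WT libraries. The log2 changes without a filter were -1.10 for Itga11, -0.70 for Itgb8 and 1.48 for Itgb6, with edgeR adjusted p of 0.691, 0.520 and 0.731, in a fit that called 0.858% of 28336 genes.

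The levels of most members split the S100a16+/- libraries, a pattern chosen after the values were seen. In 5 of the 7 tested members replicates 1 and 2 lay on one side of the WT range and replicate 3 on the other. Itga5 and Itgav were high in replicates 1 and 2 and low in replicate 3, and Itgb1, Itgb3 and Itga8 did the reverse. Over all tested genes 17.6% showed either form, 6.77% the first and 10.8% the second. As a percentage of the WT mean, Itgb1 stood at 76.4, 76.0 and 107 in replicates 1, 2 and 3, Itgb3 at 65.5, 63.9 and 117, and Itga5 at 121, 122 and 80.2. The endothelial marker sum stood at 47.6, 45.5 and 126% of its WT mean in the same libraries. Cdh5 and Eng led this sum, with Eng at 105, 99.4 and 128%. Without replicate 3 edgeR called 7 of 8 tested endothelial markers lower, where it called 16.5% of all genes lower. Below the filter, Vwf ran the other way at 437, 424 and 66.4%, as did Clec4g at 384, 372 and 55.4%. The myofibroblast sum stood at 115, 113 and 16.1%, and the platelet marker sum, nearly all Pf4, at 41.0, 43.5 and 137%. Most of the myofibroblast sum was Acta2, Tagln and Col1a1, while Lox stood at 175, 154 and 159% and Postn at 70.2, 63.6 and 25.3%. Hepatocyte markers had the widest split, at 11.0, 11.4 and 545% of WT (8.93, 9.24 and 442 FPKM in S100a16+/- libraries, against 63.6 to 95.6 FPKM in WT). Mesothelial markers stood at 98.3, 98.9 and 14.4%, and the summed stellate markers at 166, 162 and 61.9%. Most of the stellate sum was Ecm1 and Des, and other stellate markers did not follow it. Pdgfrb stood at 98.5, 76.1 and 34.5%, and below the filter Colec11 at 37.8, 46.6 and 43.1% and Reln at 74.8, 61.6 and 205%. Without replicate 3 edgeR called 3 of 5 tested stellate markers higher and 0 lower, where it called 15.8% of all genes higher. The part of these marker levels in the integrin values was not tested, and fewer cells of a type cannot be told apart from less RNA per cell in bulk libraries.

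**Figure D3:**
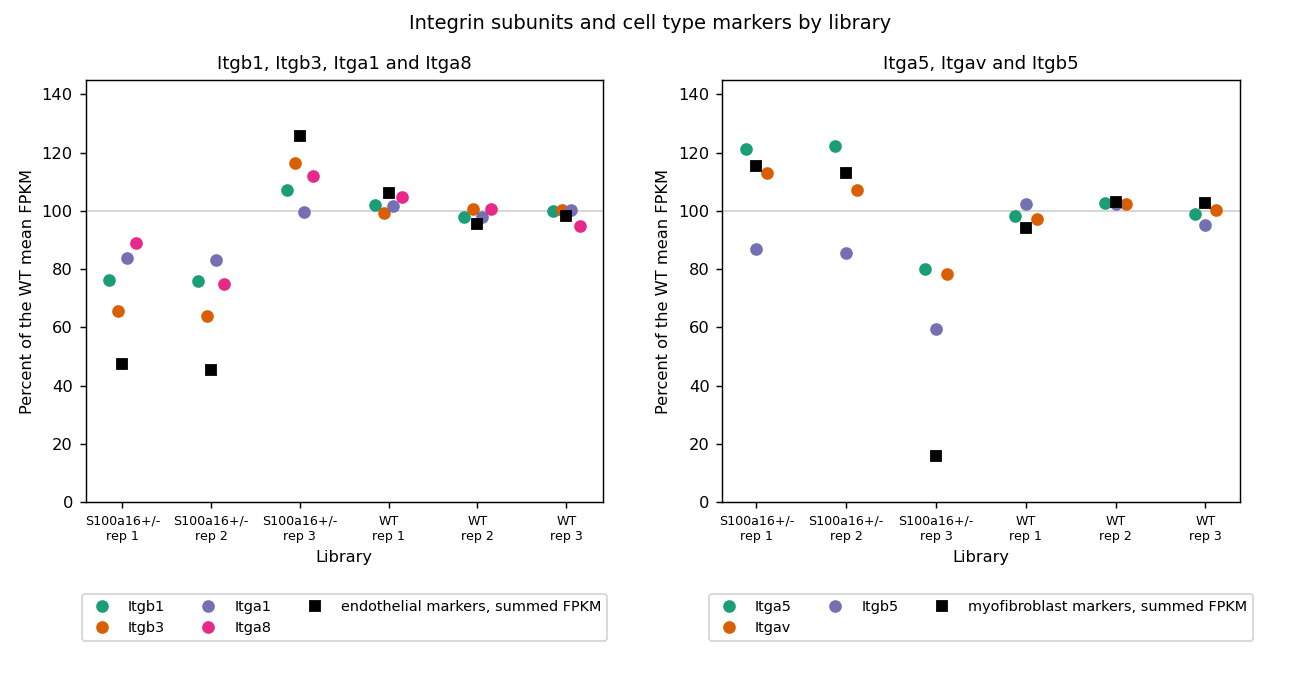
Level of each tested member in each library as a percentage of the WT mean FPKM, with the summed endothelial markers (left) or myofibroblast markers (right) as black squares. Itgb1, Itgb3 and Itga8 lie below 100% in S100a16+/- replicates 1 and 2 and above it in replicate 3, as the endothelial sum does. Itga5 and Itgav lie the other way round, as the myofibroblast sum does. Itga1 and Itgb5 lie below 100% in all 3 S100a16+/- libraries. Members were placed beside a marker sum after the values were seen, and the likeness was not tested.

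Leaving out S100a16+/- replicate 3 brought 5 of the 6 members still tested past the threshold. Itga5 was then higher, at 0.35 in log2 (edgeR adjusted p = 0.00153), and Itgav at 0.20 (adjusted p = 0.0176). Itgb3 was lower at -0.56 (edgeR adjusted p = 0.000243), Itgb1 at -0.33 (adjusted p = 0.00188) and Itga1 at -0.20 (adjusted p = 0.0263). In that fit 32.3% of 12601 genes were called, 15.8% higher and 16.5% lower, so the 2 higher and 3 lower members stand against a large background of calls. The 2 remaining S100a16+/- libraries were close to each other, at r = 0.987, and the labels do not say that they came from separate animals. Itga8 did not pass the filter without replicate 3.

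Ratios between integrin chains, partners or not, were computed after the values were seen. Itgb5 per Itgav was 5.80, 6.01 and 5.71 in the S100a16+/- libraries, against 7.93, 7.53 and 7.15 in WT, and of 7 ratios it was the 1 whose groups did not overlap. Of single tested genes 31.4% did not overlap, Itgb5 itself among them, and the share among gene ratios was not computed. Its mean was 5.84 ± 0.152 in S100a16+/- cells and 7.53 ± 0.391 in WT cells. The ratio of Itgb3 to Itgb5 was 0.271, 0.269 and 0.706 in S100a16+/- cells, against 0.349, 0.353 and 0.378 in WT cells. Replicates 1 and 2 lay below WT and replicate 3 above it. Itgb1 per Itga5 was 3.22, 3.18 and 6.84 in S100a16+/- cells, against 5.31, 4.88 and 5.16 in WT cells, with the same split. As a share of the 5 beta chains that pair with alphav, by FPKM, Itgb1 made up 73.7, 74.0 and 81.1% in mutant replicates 1, 2 and 3, against 75.0, 74.1 and 75.5% in WT. Itgb5 made up 20.6, 20.5 and 11.1% in the mutant replicates, against 18.5, 19.1 and 17.7% in WT. Beta1 also pairs with the other alpha chains, so its share is not one of alphav receptors.

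**Figure D4:**
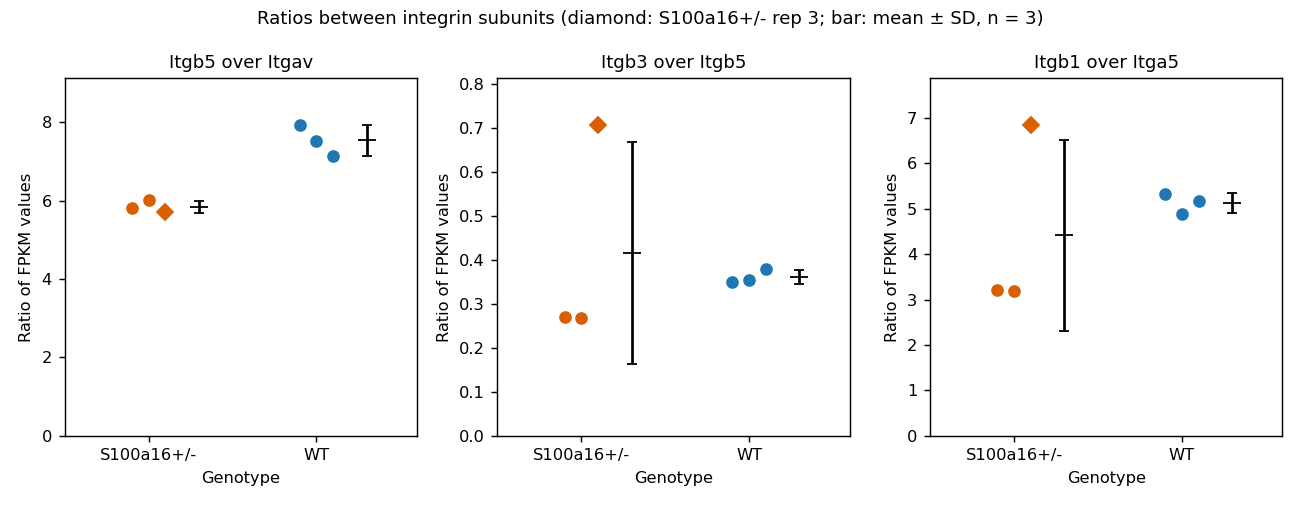
Ratios of FPKM values between integrin chains, 1 point per library, with S100a16+/- left of WT, a diamond for S100a16+/- replicate 3 and bars for the mean ± SD (n = 3). The Itgb5 to Itgav ratio is 5.71 to 6.01 in the S100a16+/- libraries and 7.15 to 7.93 in the WT libraries, while the other ratios place S100a16+/- replicate 3 on the opposite side of WT from replicates 1 and 2.

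Of the other 16 integrin subunits, 10 were tested and 2 were called, where 4.46% of all tested genes were called. Itga4, the VCAM-1 and fibronectin receptor chain of leukocytes, had 4.46, 4.62 and 4.57 FPKM in S100a16+/- cells, against 3.17, 3.27 and 2.90 FPKM in WT cells. It rose, the log2 change being 0.60 ± 0.071 (SE; edgeR adjusted p = 0.0183), and was higher in all 3 mutant libraries. Itga2b, the platelet partner of Itgb3, had 0.526, 0.554 and 0.588 FPKM in S100a16+/- cells, against 1.47, 1.31 and 1.12 FPKM in WT cells. It fell, its log2 change being -1.16 ± 0.15 (SE; edgeR adjusted p = 0.0211), and was lower in all 3 mutant libraries. It passed the filter through the WT libraries alone, since every S100a16+/- library was below 1 FPKM, so a lower level was built into its selection. With no filter its edgeR adjusted p was 0.0404. Of the 6 leukocyte subunits tested 1 was called higher and 0 lower, and of the 4 other matrix subunits 0 higher and 1 lower. EdgeR on all 6 libraries called 2.85% of all genes higher and 1.61% lower. Without S100a16+/- replicate 3 edgeR called 5 leukocyte subunits higher and 4 other matrix subunits lower, where it called 15.8% of all genes higher and 16.5% lower. DESeq2 on all 6 libraries called 4 leukocyte subunits higher and 2 other matrix subunits lower. Over all 12766 genes it called 1125 higher and 763 lower, more than edgeR. The abundant Itgb2, the beta chain of leukocytes, had 382, 391 and 142 FPKM in S100a16+/- cells against 138, 143 and 132 FPKM in WT, and did not pass (edgeR adjusted p = 0.151). Without replicate 3 Itgb2 passed (log2 change 1.55, edgeR adjusted p = 4.14e-05). Itgal had 68.3, 67.1 and 29.3 FPKM in S100a16+/- cells against 17.7, 19.4 and 17.8 FPKM in WT (edgeR adjusted p = 0.0580), and the laminin receptor chain Itga3 had 21.3, 21.7 and 26.9 FPKM in S100a16+/- cells against 32.9, 32.0 and 33.8 FPKM in WT (adjusted p = 0.0630). Without replicate 3 Itgal and Itga3 passed, at edgeR adjusted p of 4.04e-05 and 0.000462. Summed macrophage markers stood at 178, 191 and 128% of WT in the same libraries, a sum made up mostly of Lyz2 and Marco. Of the 10 macrophage markers edgeR called 3 higher and 0 lower, beside 2.85% and 1.61% of all genes. Without replicate 3 it called 6 higher and 2 lower, beside 15.8% and 16.5%. Csf1r stood at 99.4, 103 and 106% of its WT mean and C1qa at 69.0, 72.8 and 95.2%, values chosen after they were seen. The part of the macrophage markers in the leukocyte subunits was not tested.

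Of 13 tested matrix ligands of these receptors 1 rose and 1 fell, and 8 were lower in S100a16+/- cells without overlap, where 4.46% of all tested genes were called and 18.9% were lower without overlap. The median log2 change over the 13 was -0.61, and without S100a16+/- replicate 3 edgeR called 1 higher and 7 lower, in a fit that called 15.8% of all genes higher and 16.5% lower. Thbs1, thrombospondin 1, a matrix protein that can also activate TGF-beta, had 511, 500 and 482 FPKM in S100a16+/- cells, against 823, 756 and 793 FPKM in WT cells. It fell, its log2 change being -0.62 ± 0.096 (SE; edgeR adjusted p = 0.0317), and all 3 mutant libraries were lower. Spp1, osteopontin, which binds alphav integrins, had 226, 215 and 77.2 FPKM in S100a16+/- cells, against 35.7, 35.8 and 30.2 FPKM in WT cells. It rose, its log2 change being 2.41 ± 0.43 (SE; edgeR adjusted p = 0.0412), and was highest in replicates 1 and 2. That call was lost with no filter (edgeR adjusted p = 0.0665), and limma called 0 ligands higher and 1 lower. DESeq2 called 1 ligand higher and 2 lower, where it called 1125 of 12766 genes higher and 763 lower.

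In the latent TGF-beta complex, 0 of 9 genes were called by edgeR, where it called 4.46% of all genes. In edgeR 1 had an unadjusted p under 0.05, and the share of all genes under it was not computed. Limma called 0 and DESeq2 1 lower, where DESeq2 called 1125 of 12766 genes higher and 763 lower. Without S100a16+/- replicate 3 edgeR called 2 higher and 3 lower, again beside 15.8% and 16.5% of all genes. Ltbp4, a protein that anchors latent TGF-beta in the matrix, had 2.56, 2.83 and 1.81 FPKM in S100a16+/- cells, against 3.96, 3.96 and 4.16 FPKM in WT cells (edgeR adjusted p = 0.0963). Its groups did not overlap. Tgfb2 had 3.80, 3.80 and 10.2 FPKM in S100a16+/- cells against 11.0, 9.41 and 10.6 FPKM in WT (edgeR adjusted p = 0.347), with replicate 3 within the WT range. Without replicate 3 its log2 change was -1.38 (edgeR adjusted p = 0.000265). Of 9 TGF-beta response genes 0 were called by edgeR, while limma called 0 and DESeq2 1 higher and 1 lower. In edgeR 4 reached an unadjusted p under 0.05, again with no share of all genes to set beside them. Without replicate 3 edgeR called 4 higher and 2 lower, beside 15.8% and 16.5% of all genes. Ski, a SMAD corepressor, had 20.9, 20.6 and 20.3 FPKM in S100a16+/- cells against 24.3, 25.2 and 25.1 FPKM in WT (edgeR adjusted p = 0.0824). All 3 S100a16+/- libraries were below all WT libraries.

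Of 25 tested adhesion adaptors, which link integrin tails to actin, 2 were lower and 0 higher by edgeR. That test called 2.85% of all genes higher and 1.61% lower. In it 5 adaptors had an unadjusted p under 0.05, and the share of all genes under it was not computed. DESeq2 called 2 adaptors higher and 3 lower, where it called 1125 of 12766 genes higher and 763 lower. Limma called 0 higher and 2 lower. Without replicate 3 edgeR called 5 higher and 7 lower, beside 15.8% and 16.5% of all genes. Parva, alpha-parvin, a partner of integrin-linked kinase, had 17.2, 15.7 and 15.4 FPKM in S100a16+/- cells, against 23.1, 24.3 and 24.7 FPKM in WT cells. It fell, its log2 change being -0.53 ± 0.073 (SE; edgeR adjusted p = 0.0246). Fermt2, kindlin-2, which activates integrins from within, had 24.7, 24.1 and 27.9 FPKM in S100a16+/- cells, against 35.0, 36.3 and 36.5 FPKM in WT cells. It also fell (log2 change -0.44 ± 0.068, SE; edgeR adjusted p = 0.0306), a call lost with no filter (edgeR adjusted p = 0.0647). All 3 S100a16+/- libraries were below all WT libraries for both genes, replicate 3 included. The calls of Parva, Fermt2, Thbs1, Spp1, Itga4, Itga2b and S100a16 held without S100a16+/- replicate 3. They were lost when any other library was left out that still allowed a test, at edgeR adjusted p of 0.0671 to 0.194.

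The genes whose profile over the 6 libraries was most like that of each tested member are given as a description, over 6 libraries of which S100a16+/- replicate 3 stands apart. Itgb1 was most like Egfl7, an endothelial gene (Pearson r = 0.9997 of log2(FPKM + 1)), with 191 genes above r = 0.99. Itgb3 was most like Sprr3, at r = 0.999, with 118 genes above 0.99. Itga1 was most like Ppp1r13b (r = 0.9995), with 146 genes above 0.99. The nearest genes to Itga5, Itgav, Itga8 and Itgb5 were Cacna2d1, Arnt2, Fbxw11 and Sox9, at r of 0.998, 0.997, 0.996 and 0.998, and 3 to 39 genes passed 0.99 for these members.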

How the data were processed

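Libraries were poly(A)-selected and made with a dUTP kit and unique molecular identifiers, per the labels' protocols. The authors deposited 1 table of counts per gene with FPKM beside them; per the file headers both are given for each library, and FPKM is 0.0001 where the deposited count is 0. The tools named, per the submitters' processing notes and with no role, are StringTie 1.3.4d, edgeR, HISAT2 2.0.4, DESeq2, UMI-tools and cutadapt 1.9. The reference build, not given in the sources used here, was read from the coordinates, which for all 10 members were those of GENCODE M21 (GRCm38).

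Counts were tested with edgeR 4.0.16 in R 4.3.3 (TMM, quasi-likelihood, genotype as the factor, all 6 libraries), over genes that reached 1 FPKM in 3 or more libraries, with Benjamini-Hochberg adjustment and a threshold of 0.05. Intervals are 95%. DESeq2 1.42.0, limma 3.58.1 on log2(FPKM + 0.1, 1 or 5), library totals, 2 other filters, a replicate block and leaving out each library were alternatives. The procedure was tested on simulated data without an outlying library, a test that does not cover one like S100a16+/- replicate 3. Same-numbered S100a16+/- and WT libraries were not taken as pairs in the main test. Their deviations did not go together, but with S100a16+/- replicate 3 standing apart these cannot decide whether such libraries shared a batch.

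The members, gene lists and markers were chosen with earlier results of these data known. Named were all members, S100a16, the called genes of each pathway list (up to 4, or the 2 of smallest p), the called and the 3 highest of the other 16 integrins, and the nearest gene to each tested member. A gene that this rule names is not reported here.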

Additional observations from a re-analysis of the deposited data

How the results depend on the processing

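Leaving out S100a16+/- replicate 3 decided most calls. Genes called higher numbered 364 and genes called lower 206 with all libraries, and 20 to 1990 and 5 to 2076 when single libraries were left out, the upper ends without that replicate. Members called higher ran over 0 to 2 and members called lower over 0 to 3. DESeq2 called 1125 higher and 763 lower, and limma on log2(FPKM + 0.1) 214 higher. With no filter 162 were higher and 81 lower, in a fit that tested more genes, and with a mean FPKM of at least 5 there were 137 lower; apart from the filters the cause was not tested. No member was called under these alternatives with all 6 libraries. Itgav changed sign, to -0.012 with library totals, to -0.025, -0.022 and -0.013 in limma with 0.1, 1 and 5 added, and to -0.055 and -0.019 without S100a16+/- replicate 1 or 2, within a range of -0.055 to 0.20 over single libraries left out. Itga8 changed sign, to 0.049, without S100a16+/- replicate 2, within a range of -0.11 to 0.049. Other members kept their direction under every alternative run.

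With the replicate block 0 genes were called higher and 0 lower by edgeR, with 2207 at an unadjusted p under 0.05 and 0 members among them. Same-numbered libraries had deviations correlated at r of -0.138 to 0.0376 over 3 pairs, and different-numbered libraries at -0.0761 to 0.114. With S100a16+/- replicate 3 standing apart, these values cannot show whether same-numbered libraries shared a batch. Members below 1 FPKM are limited by depth, with 0 to 189 counts a library.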
